A study of Mus musculus with 207 samples.

Results

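Cytosolic ribosomal protein genes were measured in the cecum of mice of the Collaborative Cross (CC) breeding population, a cross of founder strains in which each breeding line carries its own mixture of founder genomes. All probes whose annotated symbol was a cytosolic ribosomal protein (Rpl and Rps genes with a number, the P stalk genes Rplp0, Rplp1 and Rplp2, and Rpsa) were taken, leaving out pseudogenes and the Rps6k kinases. This gave 92 probes of 62 genes, of 45281 probes and 19057 named genes on the array. Of these genes, 41 had 1 probe and 21 had several (51 probes), and probes of 1 gene are not independent of each other.

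The labels called 205 of the mice female or male, in nearly equal numbers, and left the sex of 2 unclear, which entered no comparison of the sexes. No treatment was named in the labels, and neither founder genotype nor age is used here. Each mouse was measured on 1 array of the Illumina Mouse WG-6 v2 BeadChip type, and which mice shared a chip is not used here. By the study's methods the RNA came from cells shed from the dissected cecum by EDTA, which loosens the epithelium. Some smooth muscle and fibroblast genes also gave strong signals (mean log2 level 14.04 for Acta2 and 12.63 for Dcn), so the samples were not epithelium alone. The first number of the animal label was read as the breeding line, which gave 113 lines, 92 of them with at least 1 female and 1 male (185 mice). This reading is uncertain, since the study names fewer lines for its microbial data, and the lines were still being inbred. Values are log2 intensities, with intensities under 16 set to 16. A probe was called above background when its mean exceeded 6.33, a level that 95% of 1543 olfactory, vomeronasal and taste receptor probes stayed under. On 8 arrays some intensities lay below 0, and the main results are also given without these arrays. In 4 mice the sex marker genes went against the labelled sex.

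Ribosomal proteins bind ribosomal RNA to build the large and small ribosomal subunits, which together translate mRNA into protein. Cells make the proteins in matched amounts, and their mRNAs share a tract of pyrimidines at the 5′ end (the TOP motif) through which growth signals by way of mTOR control their translation. In the intestine the epithelium is renewed continuously, and ribosomal protein mRNAs are among the most abundant in most cells. Many have processed pseudogenes, whose transcripts a short probe may also bind.

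The sequence around the annotated start is shown for the genes whose brightest probe followed the other members most closely (r over mice, described below). RefSeq promoters (GRCm38.p6, 250 bases before to 50 after the start) matched 51 of the 62 genes. Each line gives 40 bases before and 20 from the annotated start, with the longest run of C or T in capitals. They lie at chr10:23787190-23787249 (minus strand) for Rps12, chr2:32961672-32961731 (plus) for Rpl12, chr5:65391412-65391471 (minus) for Rpl9 and chr1:39367811-39367870 (plus) for Rpl31.
Rps12: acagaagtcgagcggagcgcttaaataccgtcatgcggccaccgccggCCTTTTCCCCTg
Rpl12: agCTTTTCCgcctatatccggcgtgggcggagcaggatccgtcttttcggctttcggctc
Rpl9: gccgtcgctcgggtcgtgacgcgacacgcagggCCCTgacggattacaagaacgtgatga
Rpl31: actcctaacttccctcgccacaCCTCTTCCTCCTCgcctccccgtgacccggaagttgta

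The run was 11 bases long in Rps12 and 13 in Rpl31, against 7 in Rpl12 and 4 in Rpl9. Within 20 bases either side of the annotated start, a run of 8 or more pyrimidines stood in 22 of 51 member promoters (43.1%), against 15.9% of the promoters of all 27025 genes in the table. The letters CCGGAAG, a core that ETS family factors bind, were found on either strand in 22 of 51 member promoters (43.1%), against 9.12% of all, and AAGATGGC, a YY1 core, in 3 (5.88%), against 2.88%. Annotated starts can be off by some bases, and a match is a description of these letters. The Rps12 start shown lies inside the gene, whose span on the minus strand begins at chr10:23787383.

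Ribosomal protein probes gave some of the strongest signals on the arrays. By the brightest probe of each gene, the mean log2 level over mice had a median of 12.3 and ranged from 6.128 to 15.18, against a median of 7.263 over all 20322 probes above background. Of the 62 genes, 32 lay in the top 1% of probes by signal and 43 in the top 5%. A probe's signal also depends on how well it binds, so these ranks order signals and not mRNA amounts. In all, 79 probes of 54 genes were above background, and 13 probes, including every probe of 8 genes, were not. Of 77 ribosomal protein genes of the mouse in a reference list, 56 had a named probe and 21 are not analysed here.

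**Figure D1:**
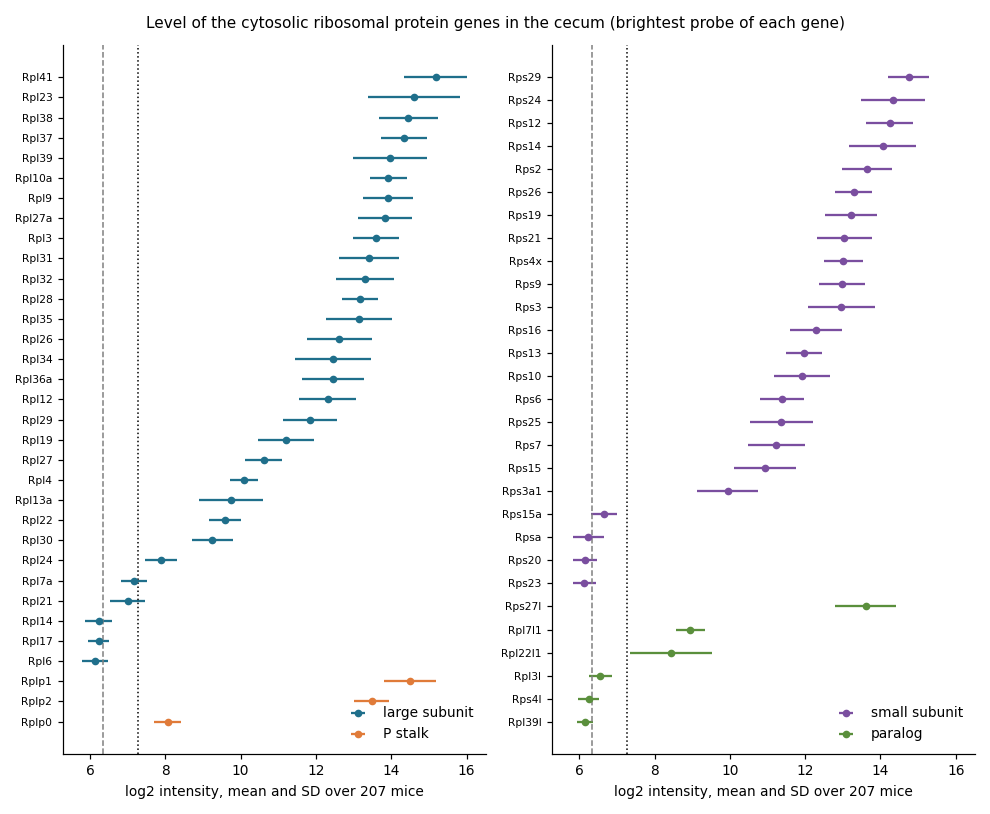
Mean log2 intensity of the brightest probe of each of the 62 genes, with bars for the SD over all mice; the left panel holds the large subunit and the P stalk, the right panel the small subunit and the paralogs. The dashed line marks the lowest probe above background and the dotted line the median of probes above background (7.263). Most genes lie to the right of both lines, up to Rpl41 at 15.18, and 8 genes do not pass the background level.

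Of the 43 large subunit genes, 30 were measured and 27 were above background, with a median level of 12.46 by the brightest probe over those measured. Rpl41, which encodes a very short peptide of the large subunit, gave the highest signal, with a lowest, median and highest log2 level of 14.13, 14.97 and 18.02 in females and 14.15, 15.06 and 17.73 in males. Rpl23 ranged over 11.98, 14.61 and 18.6 in females and 11.37, 14.49 and 18.28 in males. Rpl38, a protein with a known role in translating Hox mRNAs in mouse embryos, ranged over 13.35, 14.25 and 16.72 in females and 13.35, 14.22 and 16.41 in males. The sexes overlapped over nearly the whole range in each of these genes. At the dim end, Rpl6 had 4.0, 6.174 and 6.637 in females and 4.0, 6.177 and 6.585 in males, and Rpl17 and Rpl14 had mean levels of 6.22 and 6.23, so these probes gave no level above background.

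All 3 genes of the P stalk, the acidic arm that recruits translation factors, were above background. Rplp1 had a lowest, median and highest level of 13.34, 14.35 and 16.11 in females and 13.24, 14.39 and 16.38 in males. The brighter Rplp2 probe averaged 13.48, and the other, at 6.25, was not above background. Rplp0, which anchors the Rplp1 and Rplp2 dimers to the ribosome, averaged 8.06 and 6.42 on its probes.

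Of the 31 small subunit genes, 23 were measured and 20 were above background, with a median level of 12.28 over those measured. Rps29, a small zinc-binding protein, was the brightest, with 13.78, 14.71 and 16.18 in females and 13.79, 14.71 and 15.98 in males. Rps24 and Rps12 averaged 14.32 and 14.24. Rps23, which lies at the decoding centre, had 4.0, 6.166 and 6.577 in females and 4.0, 6.186 and 6.468 in males. Rps20 averaged 6.15 and Rpsa 6.24, and neither was above background.

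Of 7 paralogs, which replace or resemble a canonical protein in some tissues, 6 were measured and 4 were above background. Rps27l, a p53-responsive paralog of Rps27, averaged 13.61, with 11.87, 13.43 and 15.77 in females and 12.42, 13.53 and 15.75 in males. Rpl7l1, named for its likeness to Rpl7, averaged 8.94, and Rpl22l1, the paralog of Rpl22, averaged 8.44. Rpl3l, known from skeletal muscle and heart, averaged 6.56, just above background. Rpl39l, known from testis, and Rps4l averaged 6.15 and 6.25 and were not above background, and Rpl10l was not measured.

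Across mice the members went up and down together. Each member probe above background was set against the mean of the standardized other members over all mice, and the Pearson r had a median of 0.738 (range -0.082 to 0.946). It exceeded 0.8 for 31 of 79 probes (39.2%), against 185 of 20243 other probes above background (0.914%) when these were set against the member mean. The median r of those other probes was 0.0593. These correlations are descriptions over mice that share lines and may share chips, with no test.

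**Figure D2:**
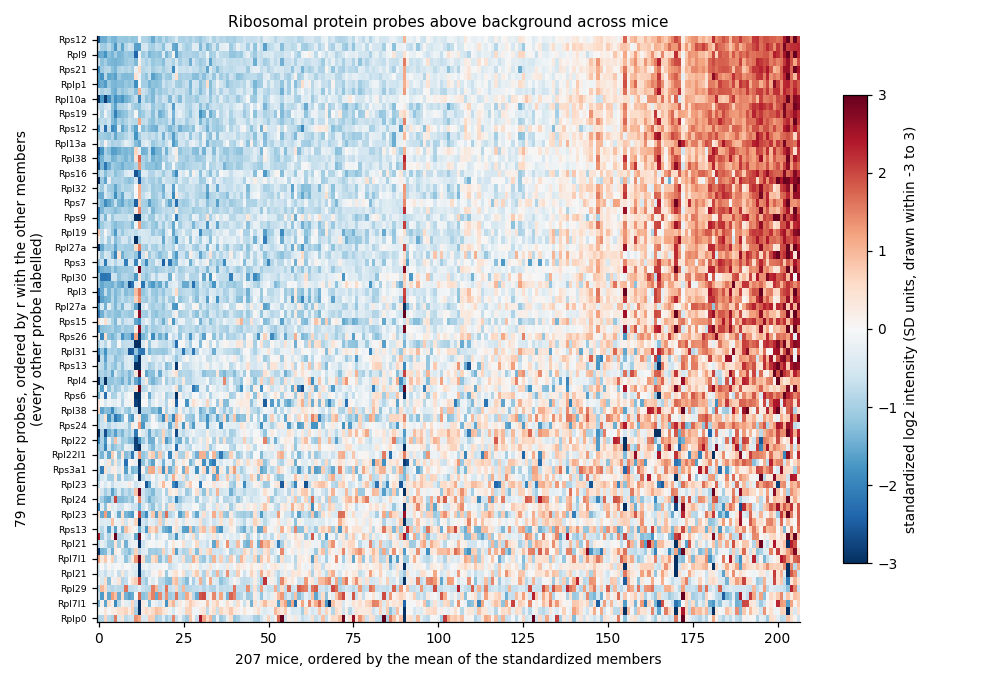
Standardized log2 intensity (SD units) of the 79 member probes above background (rows, ordered by r with the other members) in all mice (columns, ordered by the member mean). The upper rows change together from low (blue) to high (red) across the columns, while the lowest rows, with Rpl29, Rpl7l1 and Rplp0 among them, do not follow the order.

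Rps12, a small subunit protein, followed the others most closely (r = 0.946), with 13.29, 14.1 and 16.28 in females and 13.31, 14.09 and 15.8 in males. Next came Rpl12, a protein at the base of the stalk, at r = 0.918, then Rpl9 at 0.915, Rpl31 at 0.912 and Rps21 at 0.904. By the brightest probe per gene, each against those of the other genes, the median r was 0.842 over the 54 genes above background. The r between 2 genes had a median of 0.543 over 1431 pairs, with 92 pairs below 0. Against the mean of all other members, the brightest probes had a median r of 0.826 in the large and 0.827 in the small subunit. Over all 79 probes it was 0.761 without the 8 arrays with values below 0, and 0.721 and 0.767 within the low and the high number series of the animal labels. The 2 probes of Rps12 correlated with each other at r = 0.921.

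**Figure D3:**
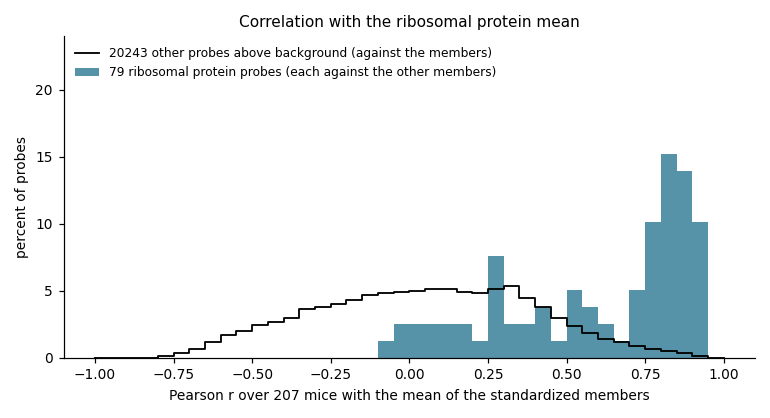
Percent of probes (vertical axis) by Pearson r over all mice with the mean of the ribosomal protein probes (horizontal axis); filled bars are the 79 member probes, each against the other members, and the line is 20243 other probes above background. The members pile up above 0.7 (median 0.738), and the other probes spread around a median of 0.0593.

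Other strong probes also moved with the members in part. Over a log2 level of 11, the 45 member probes had a median r of 0.84, and 964 probes of other or unnamed genes had a median r of 0.48 with the mean of each other and 0.354 with the member mean. The member mean correlated over mice with the mean level of these bright probes (r = 0.767, rho = 0.826), with log2 of the array's highest intensity (r = 0.619, rho = 0.676) and with the array's median intensity (r = 0.337, rho = 0.427). With the mean log2 level of all probes it had r = 0.046 (rho = 0.274). With the 2 mice farthest from the median left out, these r were 0.818, 0.653, 0.441 and 0.138, and without the 8 arrays with values below 0 they were 0.758, 0.673, 0.416 and 0.288. The highest intensity of an array may itself be that of a member probe, so its r may in part set members against themselves. When the bright signal was regressed out of each member, the median r among members was 0.55, and when the arrays were quantile normalized it was 0.503, against 0.738 as deposited. With the first 10 principal components removed it was 0.391. The part of array intensity in the coherence was not tested beyond these values.

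The level of a member's signal and its r went together, with a Spearman rho of 0.768 over the 79 member probes, which share arrays and in part genes. The lowest r belonged mostly to dim probes. The dimmer Rplp0 probe had r = -0.082, the third brightest of the Rps24 probes -0.037, the dimmer Rpl4 probe 0.031 and the dimmer Rpl29 probe 0.035. Rps15a (r = 0.087), the dimmest Rpl21 probe (0.092), the dimmer Rpl30 probe (0.115) and the dimmer Rpl7l1 probe (0.129) all had mean levels between 6.45 and 6.65, near background. The brighter Rplp0 probe had r = 0.185 at a level of 8.06. The brighter Rpl7l1 probe stood apart, with r = -0.005 at a level of 8.94 and values of 7.433, 8.961 and 9.723 in females and 8.016, 9.053 and 9.813 in males. Among strong signals, Rps4x, the X-linked small subunit gene, had the lowest r (0.422 at a level of 13.01).

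**Figure D4:**
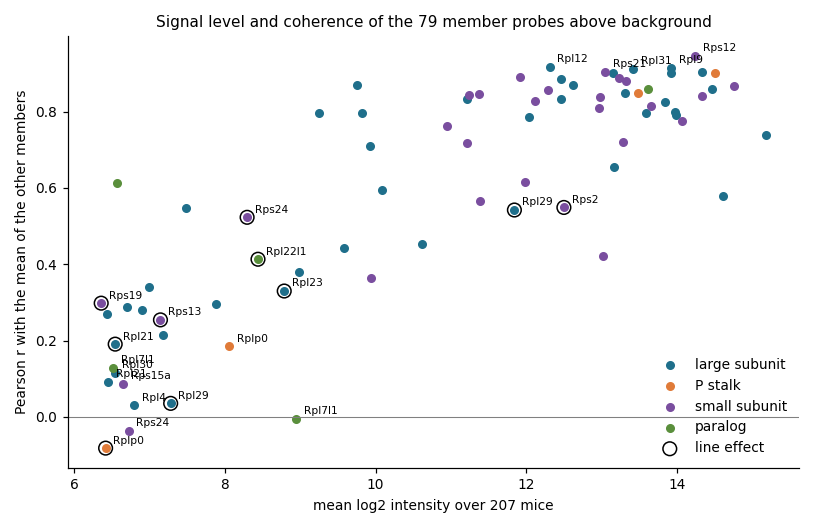
Pearson r of each of the 79 member probes above background with the mean of the other members (vertical axis) against its mean log2 intensity (horizontal axis), coloured by subunit, with circles around probes that have a line effect. Probes over a level of 11 have r between 0.422 and 0.946, and the probes with r near 0 lie below 9.

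Different probes of the same gene did not always move together. Among 18 genes with several probes above background, 34 pairs of probes had a median r of 0.492 (range -0.292 to 0.921), and 8 pairs in 6 genes (Rpl23, Rpl27a, Rpl30, Rpl4, Rpl7l1 and Rps24) had r under 0.2. The brightest and the third brightest Rps24 probes had the lowest r (-0.292), with mean levels of 14.32 and 6.72. The brightest Rpl23 probe and the Rpl23 probe at a level of 8.79 had r = 0.136 (rho = 0.240), while the 2 brightest Rpl23 probes had r = 0.833. In Rpl7l1 the probes had r = 0.114 (rho = 0.173), and in Rpl4, a core large subunit protein, 0.131 (rho = 0.127).

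Paralogs followed their canonical partner to different degrees. Rpl3l correlated with Rpl3 at r = 0.646 (rho = 0.580), though its signal ranged only over 6.09, 6.519 and 7.637 in females and 6.094, 6.462 and 7.68 in males. Rpl22l1 correlated with Rpl22 at r = 0.116 (rho = 0.092), and both were above background. In the mouse, Rpl22 protein is known to repress Rpl22l1. Rpl39l and Rps4l, near background, had r = -0.071 and -0.007 with Rpl39 and Rps4x. The starts of the pair that diverged are shown in the same way, at chr3:28805468-28805527 (plus strand) for Rpl22l1 and chr4:152325686-152325745 (plus) for Rpl22.
Rpl22l1: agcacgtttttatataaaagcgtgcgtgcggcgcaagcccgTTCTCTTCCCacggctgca
Rpl22: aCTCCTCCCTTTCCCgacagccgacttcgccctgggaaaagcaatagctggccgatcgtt

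The longest run of pyrimidines was 10 bases in Rpl22l1, just after the annotated start. In Rpl22 it was 14 bases, more than 20 bases before the start shown. That Rpl22 start lies inside the gene, whose span begins at chr4:152324436, while the Rpl22l1 start is where its gene span begins. The runs of this pair are thus not at like sites.

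The spread over mice was wide. Member probes above background had a median SD of 0.656 log2 units (range 0.221 to 1.385), against 0.431 over all probes above background. The members' median was 0.622 without the 8 arrays with values below 0 and 0.259 with 10 principal components removed. Among probes over a level of 11 the median SD was 0.734 for members and 0.551 for the others. The highest SD belonged to the dimmer Rpl29 probe (1.385), followed by the brightest Rpl23 probe (1.224), Rpl22l1 (1.082), the second brightest Rps24 probe (1.021) and Rpl34 (1.009). Rpl34, a large subunit protein, had 10.93, 12.04 and 15.47 in females and 10.98, 12.1 and 14.77 in males, with r = 0.886, so it varied with the rest. The dimmer Rpl29 probe varied most and hardly followed the rest.

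Averaged over the member probes above background, the log2 level of a mouse had a lowest, median and highest value of 10.27, 10.78 and 12.02 in females and 10.28, 10.78 and 12.06 in males. The highest of all mice was 3.83-fold above the lowest. On the 8 arrays with values below 0 this mean ran from 10.56 over a median of 11.52 to 12.02, against 10.12, 10.77 and 12.06 on the other arrays. The line intraclass correlation (ICC), computed from sex-centred values of mice that share a line, was 0.0554 for the member mean and 0.0768 for the mean of the other bright probes. A value near 1 means little spread within lines beside that between them, and a value near 0 that line members were no more alike than any other mice.

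Single members did differ between lines. The study housed every line apart from the others, so genotype and housing cannot be told apart in a line effect. An F-test of line with Benjamini-Hochberg adjustment over all probes called a line effect for 11 of 92 member probes (12%) of 10 genes, against 5.96% of all probes, and for 10 of the 79 above background (12.7%), against 12.5% of all probes above background. A line ICC of 0.3 or more was reached by 10 of 92 member probes (10.9%), against 5.23% of all probes and 11.1% of those above background. The value of 0.3 was taken from the study's heritability limit. The study reports that heritability for the founder strains, so it is not the same measure as this line ICC. The median line ICC was 0.0895 over the members, 0.0382 over all probes and 0.0791 over those above background. The members' share of line effects was thus near that of other probes above background. Over a level of 11 it was 2 of 45 member probes (4.44%) and 117 of 964 other probes (12.1%), a difference that was not tested. By the brightest probe of each gene 3 of 62 genes had a line effect (Rpl29, Rpl22l1 and Rps4l). The share over the brightest probes of all genes is not given here. Without the 8 arrays with values below 0 the count of member probes with a line effect was 19, against 11% of all probes in that setting. Whether a called probe lies over a variant that differs between founders is not known here, since the study's filter on such probes had not been applied to these values.

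Rpl29, a heparin-binding protein of the large subunit, had the strongest line effect, and both of its probes showed it. On the dimmer probe the lowest, median and highest levels were 5.591, 6.497 and 10.46 in females and 5.995, 6.441 and 9.984 in males. Line means ran from 5.887, which is not above background, to 10.06. In 23 of 92 lines the mean of each sex lay above 8.027, midway between the lowest and the highest value, in 55 lines both lay below, and in 14 lines the sexes lay apart. Its line ICC was 0.676 (95% interval 0.549 to 0.773, F-test adjusted p = 1.34e-11). The brighter probe had 10.29, 11.83 and 13.54 in females and 10.4, 11.88 and 13.81 in males, with a line ICC of 0.499 (0.330 to 0.637, adjusted p = 9.56e-06), and the probes correlated at r = 0.539. Within the low and the high number series of the labels the line ICC was 0.693 and 0.680 on the dimmer probe and 0.484 and 0.593 on the brighter one, and without the 8 arrays 0.70 and 0.502.

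Rpl23, a large subunit protein that also binds Mdm2, had a line effect on 1 of its 4 probes. On that probe the levels were 7.161, 8.875 and 9.834 in females and 7.035, 8.957 and 9.942 in males, and line means spanned 6.33-fold. Both sexes lay above the midway level of 8.488 in 61 lines and below it in 15, and lay apart in 16. The line ICC was 0.626 (0.485 to 0.735, F-test adjusted p = 1.4e-09). Within the low and the high number series it was 0.567 and 0.686, and without the 8 arrays 0.652. On the other Rpl23 probes the line ICC was 0.003, 0.073 and 0.253, and none had a line effect.

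Rps24, a small subunit protein with several splice forms and a Diamond-Blackfan anemia gene in humans, had a line effect on its second brightest probe, with 6.391, 8.179 and 10.93 in females and 6.469, 8.256 and 10.82 in males. Line means spanned 15.3-fold, and the line ICC was 0.445 (0.267 to 0.594, F-test adjusted p = 0.00015). It was 0.557 in the low and 0.313 in the high number series, where the F-test no longer called it, and 0.396 without the 8 arrays. The brightest Rps24 probe, at a level of 14.32, had a line ICC of -0.025. Rps2, a small subunit protein at the mRNA entry, had 9.582, 12.53 and 14.39 in females and 9.828, 12.5 and 14.86 in males on its second probe, where the line ICC was 0.352 (F-test adjusted p = 0.00629). It was 0.414 without the 8 arrays, and 0.273 and not called in the high number series alone. On the first Rps2 probe it was 0.203.

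Rpl22l1 had a lowest, median and highest level of 5.005, 8.366 and 11.41 in females and 6.087, 8.507 and 10.87 in males. Its line means ran from 5.654, which is not above background, to 10.35. In 40 lines both sexes lay above the midway level of 8.206, in 20 both lay below, and in 32 they lay apart. The line ICC was 0.351 (0.161 to 0.517, F-test adjusted p = 0.00646), and that of Rpl22 was 0.214, with no line effect. For Rpl22l1 it was 0.518 in the low number series, 0.170 in the high one, where it was not called, and 0.273 without the 8 arrays with values below 0.

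**Figure D5:**
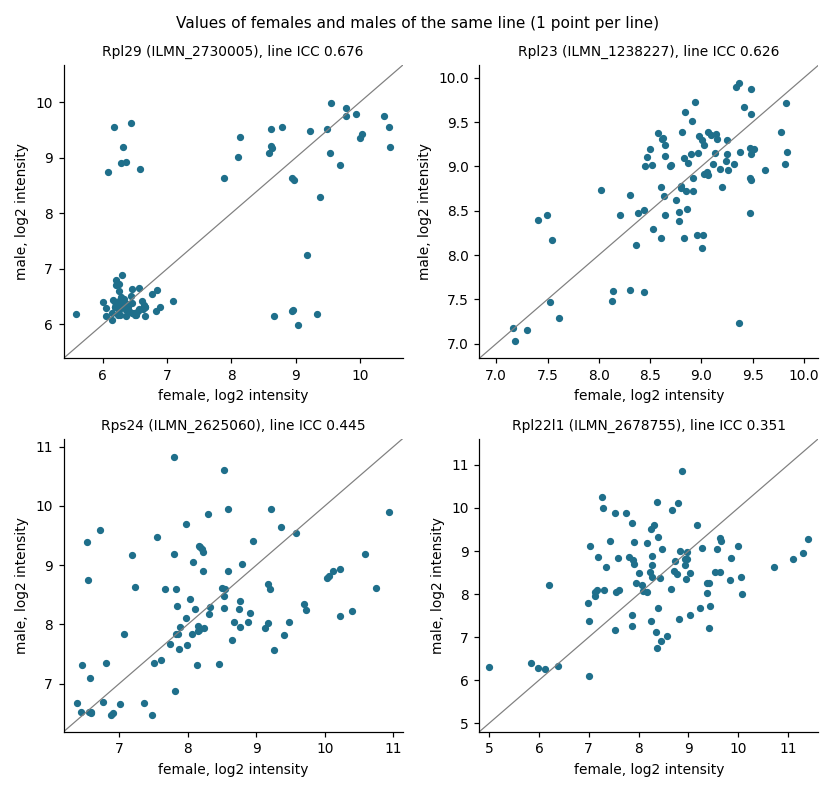
Log2 intensity of females (horizontal axis) and males (vertical axis) of the same line, 1 point for each of 92 lines, for probes of Rpl29, Rpl23, Rps24 and Rpl22l1 with a line effect; the grey line marks equal levels. Rpl29 lines fall near 6 to 7 or near 8 to 10 in most cases (line ICC 0.676), Rpl23 lines lie along the grey line, and Rps24 and Rpl22l1 lines scatter more (0.445 and 0.351).

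The other probes with a line effect gave weak signals. The line ICC was 0.392 on a Rpl21 probe (F-test adjusted p = 0.00144), 0.378 on the dimmer Rps13 probe (0.00244), 0.302 on the dimmer Rplp0 probe (0.0285) and 0.289 on the dimmer Rps19 probe (0.0404), with mean levels between 6.36 and 7.14. Rps4l had a line ICC of 0.405 (0.000852) at a mean of 6.25, which was not above background. The brightest probes of Rps13, Rplp0 and Rps19 had line ICCs of 0.090, -0.033 and 0.079 and no line effect. Under other settings the Rps19 line effect was lost in 6 of 9, those of Rpl21 and Rps4l in 2 of 9 and 2 of 8, and those of Rplp0 and Rps13 in 1 of 9 each. Single founder alleles were not analysed here.

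No member passed the test between females and males. With limma (female minus male), 0 of 92 member probes passed an adjusted p of 0.05, against 0.0353% of all probes, and 1 had an unadjusted p under 0.05 (1.09%, against 1.04% of all probes). That was the brighter Rpl7l1 probe, at 8.887 ± 0.408 in females and 9.004 ± 0.355 in males (SD over the mice of each sex), a difference of -0.116 ± 0.053 (SE) with limma's adjusted p = 1.0. Next came Rpl7a, at 7.206 in females and 7.135 in males, and the dimmest Rpl23 probe, at 6.931 in females and 6.864 in males, each with limma's adjusted p = 1.0. Over the members the difference ran from -0.116 to 0.126, with a median of 0.011. The last number of the animal labels fell into 2 series (90 mice over 100 and 116 below), whose meaning is not given. A mouse with a far lower number than the rest was put in neither series. Between the high and the low series 0 of 92 members and 0% of all probes passed. The median difference was 0.073 over the members and 0.036 over all probes. At an unadjusted p under 0.05 were 7 of 92 members, and the share of all probes is not given here, so this count is not read as a result. No member passed for a difference of the sex effect between the series either.

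By r over all mice, the named genes outside the family whose level followed the member mean most closely were Smim26 (0.904), Nsa2 (0.902), a factor in maturing the large subunit, Use1 (0.902), Chrac1 (0.899), Snrpd2 (0.892), a core splicing protein, Cops9, Ssr4, Atp5l, Commd6, Uqcr11, Dpm3, Pfdn5, Med31, Dnajc15 and Sec61g (0.881). The probes most unlike the members were those of Sf3b3 (-0.791), a splicing factor, Zmiz2, Gse1, Tmem131 and Spg7 (-0.778). Of the 30 probes most like the members, 18 had no gene name. Ribosomal protein genes were short, with a median span of 3452 bp (941 to 11774) by RefSeq (GRCm38.p6), against 22640 bp for other genes above background, and 57 of 62 lay within the range of the shortest when those genes were split into 5 bins of equal size by span. The median r with the member mean was 0.162 in the shortest bin, and 0.0876, 0.0704, 0.0568 and 0.0607 in the next bins, from short to long. The 73 mitochondrial ribosomal protein genes above background, which serve the separate ribosome of the organelle, had a median r of 0.237 with the member mean.

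Translation factors and other genes with a TOP motif moved partly with the members. Of 23 listed, 20 were measured and 18 were above background, and their mean correlated with the member mean at r = 0.502 (rho = 0.510), or 0.545 without the 8 arrays with values below 0. Eef1g, a subunit of the elongation factor 1 complex, had r = 0.833, Naca, which binds nascent chains, 0.814, and Eif3k 0.705. Others went the other way, with Eif3l, another subunit of the initiation factor 3 complex, at -0.479, Eef2 at -0.457, Eif2s3x at -0.296 and Pabpc1, the poly(A)-binding protein, at -0.284. None had a line effect, and 1, the X-linked Eif2s3x, differed between the sexes (limma adjusted p = 0.00106).

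Ribosome biogenesis factors moved less with the members. Of 30 listed, 29 were measured and 23 were above background, and their mean had r = 0.249 (rho = 0.276), or 0.332 without the 8 arrays. In 7 of the 23 the F-test called a line effect, against 12.5% of all probes above background. They were Rrp12 (line ICC 0.528), Pes1 (0.506), Tsr1 (0.475), Polr1b (0.423), Nob1 (0.388), Polr1a (0.312) and Polr1d (0.302). Polr1d, a subunit shared by RNA polymerases I and III, also followed the members (r = 0.714). Nucleolin (Ncl) had r = 0.696 and Nop2 -0.540.

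Regulators of ribosomal protein synthesis were divided. Of 12 listed, 11 were measured and 10 were above background, of which 5 had r below 0 with the member mean and 5 above 0, with a median of -0.031. Their mean had r = -0.405 (rho = -0.510), or -0.549 without the 2 farthest mice and -0.557 without the 8 arrays with values below 0. Eif4ebp2, which restrains cap-dependent translation, had r = -0.736, Larp1, which binds TOP mRNAs, -0.656 and Mtor -0.499. Rps6kb2 had r = 0.255 and Eif4ebp1 0.244, and none of the 11 had a line effect.

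Cell type markers moved with the member mean to different degrees. Goblet cell markers were all above background (8 of 8), and their mean had r = 0.596 (rho = 0.634). The list was split, with Spink4 at 0.775, and 2 of 8 below 0 (Muc2 at -0.034 and Fcgbp at -0.032). The median r of single goblet markers was 0.369, near the median of 0.354 for bright probes of other or unnamed genes. The mean level of those bright probes had r = 0.77, so these values do not set goblet cells apart from other strong signals. The mean of the fibroblast markers (6 of 6) had r = 0.419, but the list was split, with Dcn at 0.669, Col1a1 at -0.541 and 2 of 6 below 0. Stem and proliferation genes (6 of 9) had r = -0.353, with all 6 below 0. Absorptive colonocyte markers (8 of 8) had -0.114, enteroendocrine -0.188 (6 of 6), smooth muscle 0.145 (7 of 7), B and plasma cell 0.111 (5 of 8), T and NK cell 0.003 (4 of 8) and macrophage and granulocyte markers 0.072 (5 of 8). These lists were split too. Single markers with r below 0 were 3 of 8 colonocyte, 5 of 6 enteroendocrine and 3 of 7 smooth muscle markers. In the immune lists they were 2 of 5 B and plasma cell, 2 of 4 T and NK cell and 2 of 5 macrophage and granulocyte markers. Of the adipocyte (1 of 5) and exocrine pancreas markers (1 of 7) too few were above background for a list value. Fewer cells of a type and less RNA per cell cannot be told apart in these bulk samples, and the part of cell makeup in the members' levels was not tested.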

How the data were processed

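Cecal RNA of 207 mice (101 female, 104 male, 2 of unclear sex) was measured on 1 array each. The submitters' processing notes name BeadStudio 3.0.19. The authors deposited linear intensities of 45281 probes after rank-invariant normalization without background subtraction. Values under 16 were set to 16 (0.761% of all values, 0.205% of member values) before log2. Symbols came from the platform annotation, updated by gene ID to RefSeq (GRCm38.p6). The number of arrays limits the precision. Member genes and lists, and the rule for the genes named (brightest and dimmest, highest and lowest r, highest SD, every line effect, smallest p between sexes), were chosen with earlier results of these data known.

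Line ICC and its F-test came from a one-way analysis of variance over 92 lines, after the mean of each sex was removed, with p adjusted by Benjamini-Hochberg over all probes. Sexes and number series (series on line means) were compared with limma 3.58.1 (R 4.3.3). A line, read from the labels, pairs its female and male mice. The F-test sets the spread between lines against that within lines. The series test uses the spread between line means, and the main test of the sexes that between single mice. Labels do not say how lines relate, so p-values apply to these mice only. Scripts used Python 3.11.15 with scipy 1.17.1 and numpy 2.4.6. They were tested on the deposited values with shuffled labels, to which known line effects and sex differences were added. Quantile normalization, another background or floor, array centring, the dim filter, number series, principal components, probe choice and a replicate block by line were the alternatives.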

Additional observations from a re-analysis of the deposited data

How the results depend on the processing

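Line effects in members (11 probes) numbered 18 after quantile normalization (9.2% of all probes), 5 in the high number series alone (2.96%), 40 with 10 principal components removed (18.8% of all probes), 3 with 1 probe per gene and, in an alternative chosen after seeing the data, 19 without the 8 arrays with values below 0 (11% of all probes). Of the 11 probes, 10 were called both with components removed and without those arrays. Probes at a line ICC of 0.3 or more (10) numbered 29 with components removed and 3 with 1 probe per gene. Shares over all probes at that ICC are not given for these settings, nor shares over all genes with 1 probe each. With components removed the median line ICC was 0.208 over the members and 0.183 over all probes above background. The median r (0.738) was 0.391 and the median SD (0.656) 0.259 with components removed, and 0.503 and 0.439 after quantile normalization. The cause was not tested, except that fewer mice or probes enter some of these settings. The Rpl23 and both Rpl29 line effects were called under 9 of 9 settings. Rps19 was lost in 6 of 9, Rpl21 in 2 of 9, Rps4l in 2 of 8, and Rpl22l1, Rplp0, Rps13, Rps2 and Rps24 in 1 of 9 each. With line as a replicate block pairing the sexes, 0 members differed between them, and 1 had an unadjusted p under 0.05.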
